A study of Mus musculus with 3 samples.

Results

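The response of OP9-DL1 stromal cells to 24 h of vitamin C, given as phospho-ascorbate (pAsc), was measured on 1 Agilent mouse array of 2 colours. OP9-DL1 is a stromal line from mouse bone marrow that was made to display Dll1, a ligand of Notch, and supports the growth of T lineage cells from progenitors. RNA of cells given 800 µM pAsc for 24 h was labelled with Cy5, and RNA of untreated cells of the same line, kept in MEM medium, was labelled with Cy3. The protocol in the labels describes co-culture of the line with progenitors, and the labels do not say whether the stromal samples had been in contact with T lineage cells. They give both samples the strain B6-C3Hf1, the cell type osteoblast and continuous culture. The line is a single stromal line, and treated and untreated RNA came from 1 sample each. All genes well above background in both channels were taken as members, which gave 14347 of the 27729 genes in the series. The other 2 arrays of the study hold T lineage cells given 800 µM pAsc for 24 h (day 14 of culture) or 72 h (day 17), against untreated T lineage cells of the same age, with the dyes the same way round.

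The array had neither a replicate nor a swap of the dyes. No test was therefore possible, no p-value is given, and a dye effect of a probe cannot be told apart from the treatment on this array alone. Values are normalized intensities of each channel and the log2 ratio of treated over untreated cells, where 1 stands for a 2-fold higher and -1 for a 2-fold lower level. Genes were called by size, at 2-fold. Repeat spots of the same probe had a log2 SD of 0.069, and different probes of the same gene a pooled SD of 0.18 over 5117 genes. These spreads are technical and hold no variation between cultures. In a bulk sample a change in the share of a cell type and a change of RNA per cell cannot be told apart.

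The labelled cell type was set against markers. Of 15 mesenchymal markers 14 were measured, with Vim, the intermediate filament vimentin, at an intensity of 89574 in treated and 73158 in untreated cells. Of 14 osteoblast markers 11 were measured. Runx2, the factor that directs the osteoblast lineage, stood at 2199.9 in treated and 2621 in untreated cells, and Spp1, the matrix protein osteopontin, at 42129 and 43596 in the same order. Ibsp, the bone sialoprotein, was not well above background in either channel, nor were Dlx3 and Msx2. Of 9 adipocyte markers 6 were measured, with Fabp4, a fatty acid carrier of fat cells, at 35677 in treated and 46467 in untreated cells. Over both channels the measured osteoblast markers ran from 91.1 to 43596 and the adipocyte markers from 133.4 to 46467. Of 5 chondrocyte markers 3 were measured, from 287.9 to 28094.6, and of 5 muscle markers 3, from 113.1 to 3712.9. The cells thus held RNA of osteoblast, adipocyte, chondrocyte and muscle marker genes, some of it near the floor. Of 20 blood cell markers 6 were measured, with summed intensities of 1172 in treated and 1351 in untreated cells and the highest, Lyz2, at 517 and 739.7. Ptprc, the pan-leukocyte antigen CD45, was not well above background in either channel with any of its 4 probes. Of 8 endothelial markers 2 were measured, Emcn and Eng, with summed intensities of 273 in treated and 228 in untreated cells.

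The interferon system is the cell's alarm against viruses. Sensors of foreign nucleic acid lead to secretion of interferons, which act through receptors and a complex of factors that includes Stat2 and Irf9 on genes that carry an interferon-stimulated response element in their promoter. Their products degrade viral RNA, block translation, modify proteins with Isg15 or load peptides onto MHC class I molecules. Ascorbate serves as a cofactor of iron-dependent dioxygenases, among them the hydroxylases that mature collagen, those that mark hypoxia-inducible factor for destruction, and demethylases of DNA and histones.

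Interferon-stimulated genes led the genes that were higher in treated stromal cells. The 2-fold limit was passed by 62 higher genes, 0.432% of the 14347 measured, and by 17 lower genes, 0.118%. Of the 62, 21 belonged to a list of 59 interferon-stimulated genes, of which 47 were measured. Thus 44.7% of its measured members passed the limit as higher, and 0 as lower. At least 1.5-fold higher were 33 members, or 70.2%, against 2.2% of all measured genes, and 0 were lower by that size. All 47 had log2 ratios above 0, against 53.4% of all measured genes. The median of the list was 0.83 (SD 0.57 between members), against 0.02 for all measured genes. With median centring in place of loess, 3 of the 47, Herc6, Ifit2 and Ifitm1, lay below 0. The 11 members with several measured probes had every probe above 0. Of all 62 higher genes 8 had several measured probes, and in 6 of these each probe was at least 1.5-fold higher.

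**Figure D1:**
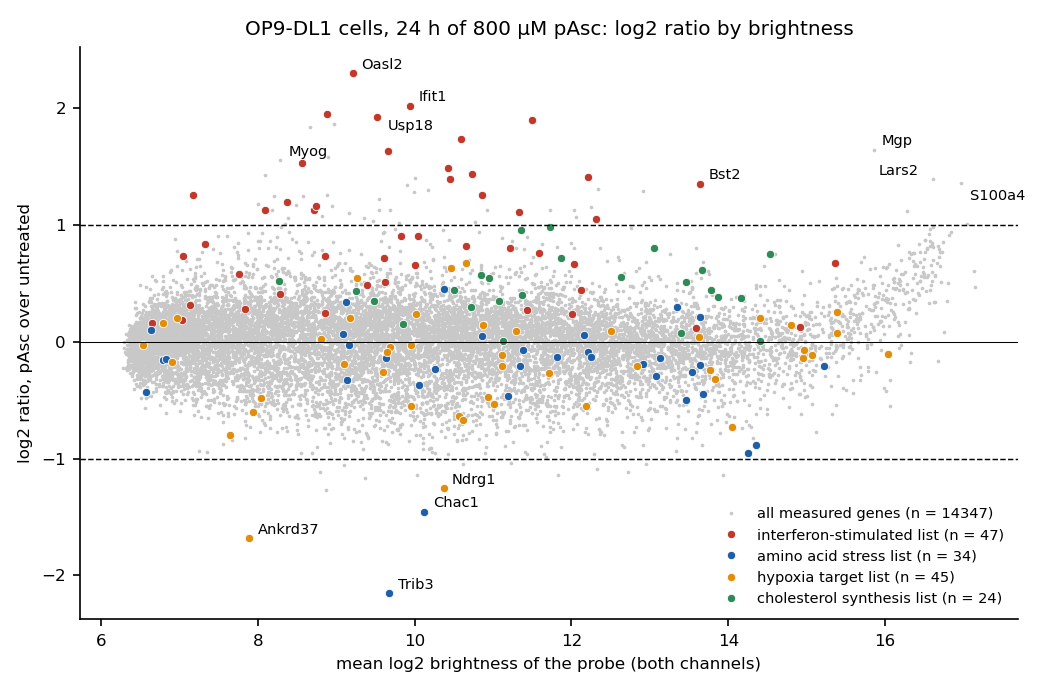
Each point is a gene measured on the stromal array, with the mean log2 brightness of its probe over both channels on the horizontal axis and the log2 ratio of pAsc over untreated cells on the vertical axis; dashed lines mark 2-fold. Red points of the interferon-stimulated list lie above 0 across the range of brightness, and Trib3, Ankrd37, Chac1 and Ndrg1 lie lowest among the coloured lists, while the cloud bends upward above a brightness of 16.

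The promoters of 5 of these genes are shown because they hold the element through which Stat2 and Irf9 act and because the genes stood 2.56-fold to 4.06-fold higher. The stretches run 5′ to 3′ along the gene's strand, from the RefSeq promoter windows of GRCm38.p6 (250 bases before to 50 after each gene's start). Capitals mark GAAANNGAAA, or its reverse complement TTTCNNTTTC, with overlapping matches joined.
Ifit1: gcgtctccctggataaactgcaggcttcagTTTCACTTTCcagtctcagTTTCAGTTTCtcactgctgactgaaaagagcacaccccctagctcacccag
Ifit3: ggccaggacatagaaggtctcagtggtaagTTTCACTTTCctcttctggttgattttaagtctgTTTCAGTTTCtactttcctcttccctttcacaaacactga
Isg15: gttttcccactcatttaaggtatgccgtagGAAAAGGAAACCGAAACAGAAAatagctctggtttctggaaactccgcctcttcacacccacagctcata
Oas1a: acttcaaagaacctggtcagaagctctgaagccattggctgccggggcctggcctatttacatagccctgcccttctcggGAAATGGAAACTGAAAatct
Bst2: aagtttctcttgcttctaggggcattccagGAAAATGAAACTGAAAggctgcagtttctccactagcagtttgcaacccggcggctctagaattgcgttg
They lie at chr19:34640755-34640854 (Ifit1, plus strand), chr19:34583343-34583446 (Ifit3, plus strand), chr4:156200827-156200926 (Isg15, minus strand), chr5:120907526-120907625 (Oas1a, minus strand) and chr8:71537533-71537632 (Bst2, minus strand). In Ifit1 the first match begins 104 bases before the start of the gene, in Ifit3 156, in Isg15 78, in Oas1a 20 and in Bst2 130 bases before it. The other match in Ifit1 begins 85 bases before the start. Isg15 holds 3 overlapping matches, and Oas1a and Bst2 hold 2 each.

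The motif was found in 1079 of all 27025 genes with a promoter entry, or 3.99%, and in 365 of the 9924 measured genes with an entry, or 3.68%. Among the genes at least 2-fold higher in treated cells it was found in 12 of the 41 with an entry, or 29.3%. Of these 12, 9 were in the interferon-stimulated list, and the other 3 were Apol9a, Apol9b and Pde1b. It was found in 0 of the 9 lower genes with an entry. Within the list the share was 52.9% of the 17 higher members with an entry and 50% (10 of 20) of the members that stayed under 2-fold. Oasl2, Irf7 and Irf9 hold no such letters in their windows. A match is a description of the sequence and not a measured binding site.

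Oligoadenylate synthetases and their relatives had the highest median of the 6 roles, at 1.60 over 4 measured genes. It was 2.54 with plain background subtraction and 1.37 with median centring. The synthetases sense double-stranded RNA and make the messenger that switches on RNase L. Oasl2, a relative of the synthetases, had an intensity of 1320.3 in treated and 268 in untreated cells, a log2 ratio of 2.30 (4.93-fold). Its probe lies on chromosome 5 at 115362168 to 115362227 of the mm9 build, and it was the highest of all measured genes. Oas1a stood at 925 in treated and 239 in untreated cells, a log2 ratio of 1.95. Oas1f, outside the list, was at 956 and 262 in the same order, a log2 ratio of 1.87. The Oas1 genes are near copies of each other, so that their probes may share RNA. Oasl1 was at 223.5 in treated and 93.5 in untreated cells, a log2 ratio of 1.26. The ratio became 2.81 with the log ratio of the authors' software and was under 2-fold with median centring. Oasl1 was close to the floor in untreated cells, where the added offset of 50 shrinks a ratio. Oas1c was at 0.58, and Oas2 was above background only in treated cells, at least 2.13-fold higher. Of the 8 listed synthetases, 4 were measured in both channels.

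The role of Ifit genes and other antiviral effectors held Ifit1, while its median was the lowest of the 6 roles of the list. Ifit1, which binds foreign RNA caps, stood at 1982 in treated and 488 in untreated cells, a log2 ratio of 2.02 (4.06-fold). Ifit3, its partner, stood at 2820.3 and 844.5 in the same order, a log2 ratio of 1.74. Both genes lie on chromosome 19, the Ifit1 probe at 34723796 to 34723855. Ifi27l2a had log2 ratios of 1.89 and 1.68 in its 2 probes, and its brighter probe read 5586 in treated and 1503 in untreated cells. Bst2, the tether that holds budding virus at the membrane, stood at 20436 in treated and 7995 in untreated cells, a log2 ratio of 1.35. Xaf1 was at 1.39 and Ifi44 at 1.20. Members of the same role that stayed under 2-fold were Parp14 at 0.82, Trex1 at 0.72, Ifitm3 at 0.68, Parp9 at 0.65, Ifi35 at 0.45, Ifit2 at 0.32, Samhd1 at 0.24, Ifitm1 at 0.18 and Ifitm2 at 0.12. Ifi27 was at 0.13 in its brighter and 1.86 in its dimmer probe, so its value depends on the probe. Rsad2, the antiviral enzyme viperin, was not well above background in either channel. The 16 measured genes of this role had a median of 0.70, with 6 at least 2-fold higher (37.5%), against 0.432% of all measured genes.

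The Isg15 system, which attaches a small protein to others, was represented at several steps. Isg15 itself stood at 7740.4 in treated and 2915 in untreated cells, a log2 ratio of 1.41 (2.66-fold). Usp18, the protease that removes Isg15 and dampens the interferon receptor, stood at 1436 in treated and 379 in untreated cells, a log2 ratio of 1.92 (3.79-fold). Uba7, the activating enzyme, was at 0.91, and Ube2l6, the conjugating enzyme, at 0.28. Among ligases Rnf213 was at 1.05, Trim25 at 0.76, Trim21 at 0.41 and Herc6 at 0.16. The exonuclease Isg20 was at 0.91. The log2 ratios of Isg15 and Usp18 were thus above those of the enzymes of conjugation.

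Of 9 measured interferon-induced GTPases, which act on membranes around intracellular microbes, 5 passed 2-fold and 8 passed 1.5-fold, as higher. These shares were 55.6% and 88.9%, against 0.432% and 2.2% of all measured genes. Irgm2 stood at 2801 in treated and 1035.5 in untreated cells, a log2 ratio of 1.44. Igtp stood at 2871 in treated and 1199 in untreated cells, a log2 ratio of 1.26. Ifi47 was at 1.16, Gbp3 at 1.13 and Tgtp1 at 1.12, with Tgtp1 having a near-identical copy that its probe may not set apart. Below 2-fold were Iigp1 at 0.83, Mx2 at 0.74, Irgm1 at 0.67 and Gbp2 at 0.51. Mx1 was not well above background in either channel.

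Sensors and signal transducers of the pathway were also higher. Zbp1, a sensor of left-handed nucleic acid, stood at 1429 in treated and 462 in untreated cells, a log2 ratio of 1.63. Dhx58, the sensor LGP2, stood at 2305 in treated and 821.5 in untreated cells, a log2 ratio of 1.49. The RNA sensors Ifih1 and Ddx58 were at 0.73 and 0.49, and the kinase Eif2ak2 at 0.24. Irf7, the factor that amplifies interferon production, stood at 643 in treated and 223 in untreated cells, a log2 ratio of 1.53. Irf9 was at 1.11 in its brighter and 0.59 in its dimmer probe. Stat2 was at 0.80.

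**Figure D2:**
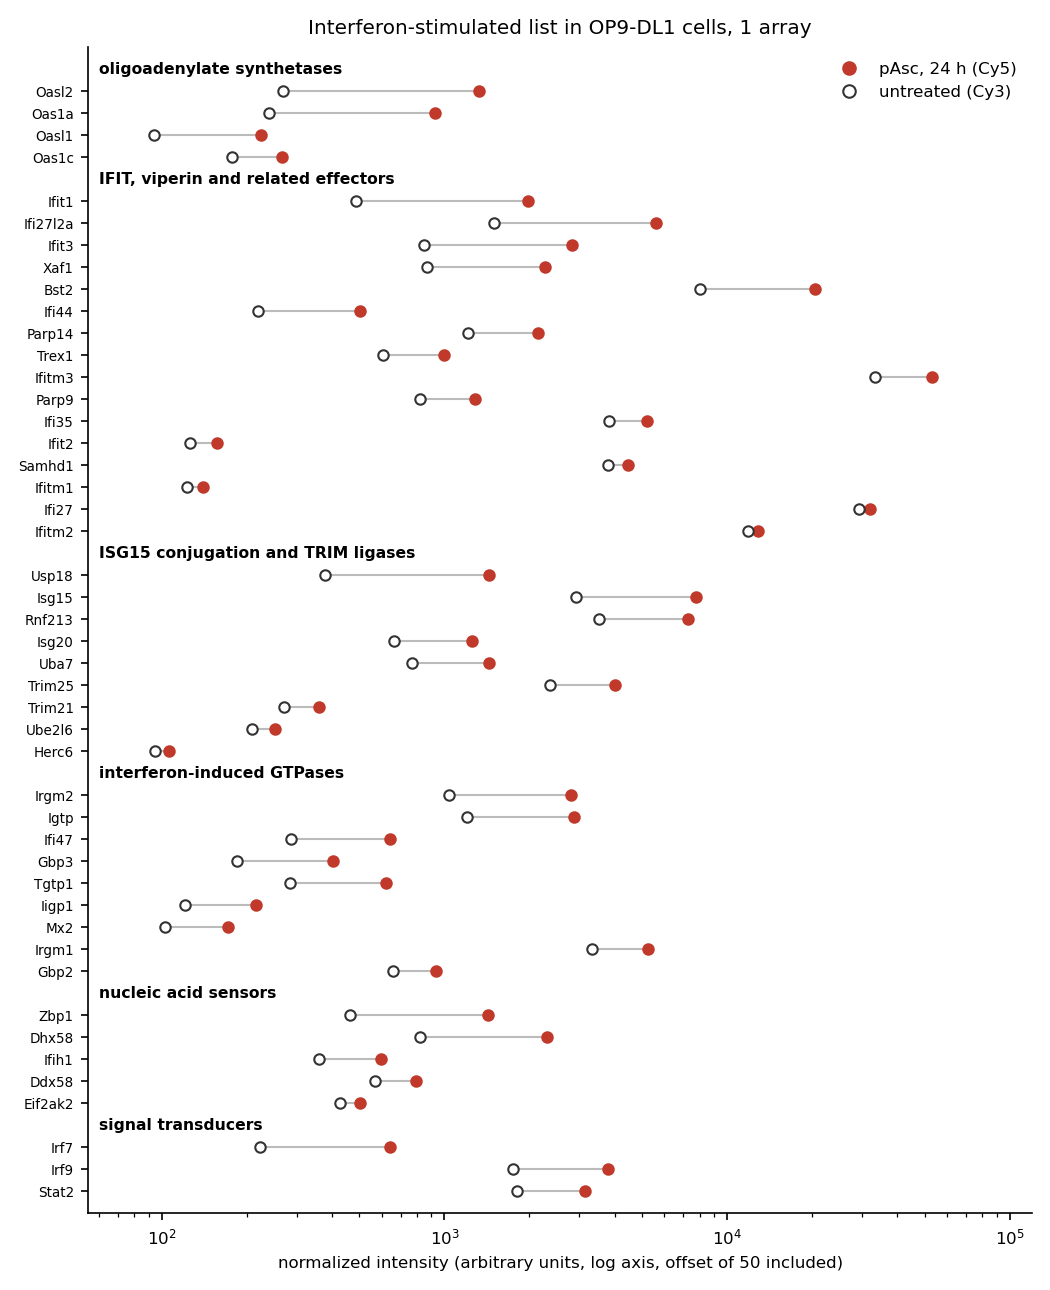
Normalized intensities (log axis, arbitrary units, offset of 50 included) of 46 of the 47 measured members of the interferon-stimulated list, by role, with filled points for pAsc-treated and open points for untreated OP9-DL1 cells, 1 array. The filled point lies right of the open point for each gene shown, from Oasl2 (1320.3 and 268) to Ifitm2, where the log2 ratio was 0.12.

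The ligands of the pathway were below the reach of the array. Of 5 interferon genes on it, Ifna2, Ifna4, Ifnb1, Ifng and Ifnl3, 0 were well above background in either channel. Their levels were therefore not measured, and the array does not show whether they differed. The receptor chains Ifnar1 and Ifnar2 were at 0.05 and -0.07, and the receptor kinases Tyk2, Jak1 and Jak2 at 0.13, -0.29 and -0.54. Among the regulators upstream of interferon, Sting1, the adaptor of cytosolic DNA sensing, stood at 3951 in treated and 2544 in untreated cells, a log2 ratio of 0.64. Mavs, the adaptor of RNA sensing, was at 0.51, Irf3 at 0.20, Tbk1 at -0.17 and the DNA sensor Cgas at -0.08. Across 24 measured ligand, receptor and regulator genes, 0 were past 2-fold in either direction. Of all measured genes 0.432% were higher and 0.118% lower by that size. The median of the 24 was 0.09. Of the chemokines that interferon induces, Cxcl10 was above background only in treated cells, at least 1.79-fold higher, and Ccl5 was at 0.86 with both probes at 0.84 or above. Cxcl9 and Cxcl11 were not well above background in either channel. Over 15 measured chemokines 7 were above 0 and the median was -0.04, which turned to 0.05 with the authors' log ratio. Cmpk2, an interferon-induced kinase of the list, was likewise seen only in treated cells, at least 1.87-fold higher. Of all genes on the array, 1114 were seen only in the treated channel and 116 only in the untreated channel.

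Genes of MHC class I presentation, another target of interferon, had a median of 0.35 over 20 measured members. The median was 0.67 with median centring. Of these 20, 17 were above 0, against 53.4% of all measured genes. At least 1.5-fold higher were 5 (25%), against 2.2% of all measured genes, and 0 were lower by that size, against 2.78%. H2-K1, a classical class I chain, was at 1.13 in the probe that represents it, and its 4 probes ranged from 0.58 to 1.13. Class I genes are close in sequence, so signals of H2-K1, H2-D1 (0.52), H2-Q10 (0.63) and H2-T23 (0.80) may be partly shared. The immunoproteasome subunits Psmb8 and Psmb9, which cut peptides for presentation, were at 0.73 and 0.65, and the peptide transporter Tap1 at 0.47. B2m, the invariant chain, was at 0.16. The chaperones Pdia3, Canx and Calr of the same list were at -0.41, -0.30 and -0.03.

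Other genes among the 62 are known to respond to interferon but were outside the list, by knowledge applied after their values were seen. Apol9a and Apol9b, near copies on chromosome 15, were at 1.28 and 1.15, and Apol6 on the same chromosome at 1.03. Rtp4 stood at 11997 in treated and 4909 in untreated cells, a log2 ratio of 1.29. Sp110 was at 1.25, Ly6e at 1.13 and Phf11d at 1.01. In all, 9 of the 62 lay on chromosome 15, or 1.49% of its 605 measured genes, against 0.432% of all measured genes. These 9 also included Arhgap8, Col14a1, Cthrc1 and Pde1b. On chromosome 19 lay 5, or 0.952% of 525, and on chromosome 11 lay 9, or 0.74% of 1217. Those on chromosome 11 included Dhx58, Igtp, Irgm2, Ifi47 and Tgtp1. The 6 on chromosome 5, or 0.666% of 901, included Oasl2, Oasl1, Oas1a and Oas1f.

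The complement factors Cfb and Serping1 were also at least 2-fold higher, as 2 of 13 measured complement genes (15.4%), against 0.432% of all measured genes. Cfb, a protease precursor of the alternative pathway, stood at 1667 in treated and 631 in untreated cells, a log2 ratio of 1.40. Serping1, the C1 inhibitor, was at 1.22. The subunits C1ra and C1s1 that it inhibits were at 0.56 and 0.51, while C3, the central component, was at -0.28. The list had a median of 0.11, or 0.26 with the authors' log ratio, with 9 of 13 above 0, against 53.4% of all measured genes.

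A few matrix and muscle genes also passed 2-fold as higher. In the lists they were 2 of 28 measured collagen chains, 1 of 40 other matrix proteins and 1 of 12 muscle genes. These shares were 7.14%, 2.5% and 8.33%, against 0.432% of all measured genes. Mgp, an inhibitor of calcification in cartilage and vessel wall, stood at 104751 in treated and 33475 in untreated cells, a log2 ratio of 1.65 (3.13-fold), or 1.40 with the authors' log ratio. Col14a1, a fibril-associated collagen, stood at 449 in treated and 167 in untreated cells, a log2 ratio of 1.43. Col1a2, a chain of type I collagen, was at 1.12 in its brighter probe, at 0.69 there with the authors' log ratio, and at -0.31 in its dimmer probe. Its partner chain Col1a1 was at 0.46, with 3 probes from 0.34 to 0.55. Col11a1 was at 0.94 and Col3a1 at 0.30. Over 28 measured collagen chains 20 were above 0, against 53.4% of all measured genes. Their median was 0.16, and the alternatives ranged from 0.07 to 0.43. The 10 fibrillar chains, with a median log2 brightness of 14.3, had a median of 0.30, which was 0.16 with a running median over brightness, 0.18 with the authors' log ratio and 0.88 with median centring. All 10 were above 0, except for Col5a2 with the authors' log ratio and Col11a2 and Col27a1 with median centring. Matrix proteins other than collagens had a median of -0.02, or 0.19 with median centring, and Postn was the lowest of them at -0.74.

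Myog, the factor of terminal muscle differentiation, stood at 535 in treated and 182 in untreated cells, a log2 ratio of 1.56. It was the 1 muscle gene past 2-fold. Over 12 measured muscle genes 11 were above 0, or 7 with median centring, against 53.4% of all measured genes. The median was 0.29, and the alternatives ranged from 0.17 to 0.62, with Tnnc1 at 0.95, Tnnt3 at 0.74 and Myod1 at 0.40. Of the muscle markers, Myf5 and Ckm were not well above background in either channel. F13a1, a subunit of the clotting transglutaminase, was at 1.58, Elmo3 at 1.55, As3mt, an arsenic methyltransferase, at 1.84 and 1.03 in its 2 probes, and Plac8 at 1.35.

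Lars2 (1.39), S100a4 (1.36), Col1a2 (1.12) and Myl6 (1.01) among the 62 are very bright, above a mean log2 brightness of 16. The 138 measured genes this bright had a median of 0.52 after loess, against 0.18 with the authors' log ratio. These 4 genes were under 2-fold with the authors' log ratio, at 0.91, 0.92, 0.69 and 0.56. The gene just inside the 2-fold limit was Myl6, and just outside it stood Tm7sf2 at 0.99. On the lower side Hs6st2 at -1.01 was inside and Malat1 at -0.98 outside.

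Cholesterol synthesis is run by a chain of enzymes under the control of Srebf2. All 24 measured genes of its list were above 0, with a median of 0.44, or 0.73 with median centring, and 6 at least 1.5-fold higher (25%), against 2.2% of all measured genes. Srebf2 or Idi1, each near 0, lay below 0 under some alternatives. None of them reached 2-fold (0 of 24). Tm7sf2, a sterol reductase, stood at 4768 in treated and 2406 in untreated cells, a log2 ratio of 0.99. Mvd, which decarboxylates mevalonate diphosphate to isopentenyl diphosphate, stood at 3634 in treated and 1875 in untreated cells, a log2 ratio of 0.95. Pmvk was at 0.80, Ebp at 0.75, Dhcr7 at 0.72 and Fdps at 0.61. Hmgcs1 and Srebf2 were at 0.07 and 0.01. Fatty acid synthesis genes had a median of 0.31 over 16 measured members, or 0.57 with median centring, with Acss2 at 0.81, Scd1 at 0.67 and Fasn at 0.23.

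**Figure D3:**
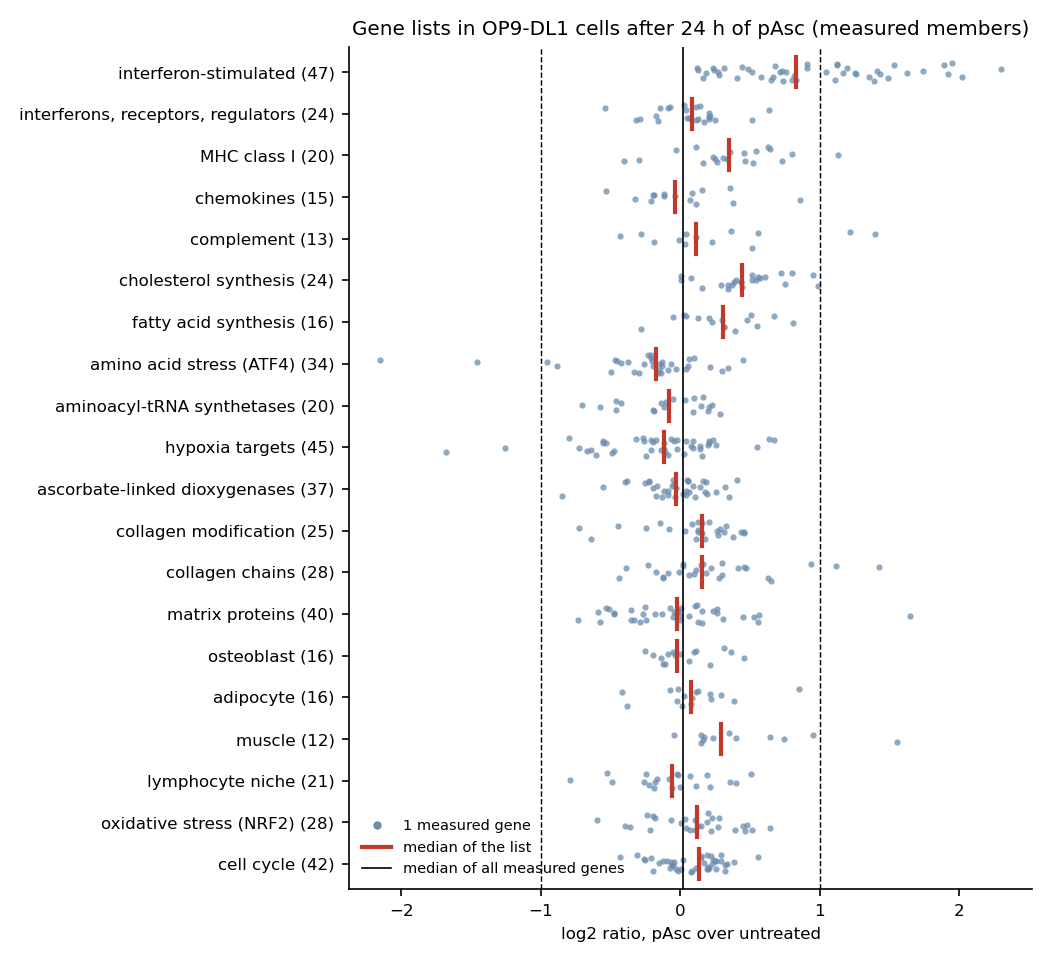
Log2 ratio of pAsc over untreated OP9-DL1 cells for each measured gene (points) of 20 gene lists, with the median of each list as a red bar, the median of all measured genes as a solid line and 2-fold as dashed lines; the number measured stands beside each name. The interferon-stimulated list has the highest median at 0.83, and cholesterol synthesis follows at 0.44, while amino acid stress is lowest at -0.17.

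Lower genes were fewer than higher ones at 2-fold (17 and 62) but more at 1.5-fold (399 and 316). The 4 lowest genes with gene symbols belong to the lists of amino acid stress and hypoxia. ATF4 is the factor that raises amino acid synthesis and transport when amino acids run short or the endoplasmic reticulum is stressed, and it acts on composite C/EBP-ATF elements. Hypoxia-inducible factor raises glucose uptake, glycolysis and survival genes at low oxygen through elements with the core ACGTG. The promoters of 3 leading genes are shown because they hold these elements. Capitals mark TGATGNAA or its reverse complement TTNCATCA in Trib3 and Chac1, and ACGTG or its reverse complement CACGT in Ankrd37, with Trib3 shown as the site and its flanks.
Trib3: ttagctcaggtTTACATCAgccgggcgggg
Chac1: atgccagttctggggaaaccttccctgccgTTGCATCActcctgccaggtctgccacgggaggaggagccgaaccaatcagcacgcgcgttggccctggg
Ankrd37: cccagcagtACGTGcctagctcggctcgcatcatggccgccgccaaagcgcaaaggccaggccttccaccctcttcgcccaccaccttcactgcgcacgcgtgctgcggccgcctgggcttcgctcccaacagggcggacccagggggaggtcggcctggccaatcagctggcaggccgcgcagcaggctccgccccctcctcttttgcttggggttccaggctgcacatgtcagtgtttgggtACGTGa
They lie at chr2:152344028-152344057 (Trib3, minus strand), chr2:119351019-119351118 (Chac1, plus strand) and chr8:45999851-46000100 (Ankrd37, minus strand) of GRCm38.p6. The match begins 14 bases after the start of Trib3 and 193 bases before that of Chac1. In Ankrd37 the matches begin 241 and 6 bases before the start. The C/EBP-ATF letters occur in 273 of 9924 measured genes with an entry, or 2.75%, and in 2 of the 9 lower genes with an entry, Trib3 and Chac1. They occur in 8 of 29 measured genes of the amino acid stress list with an entry, or 27.6%. The short hypoxia core occurs in 28.9% of measured genes and in 24 of 37 measured hypoxia targets, or 64.9%. Of the 9 lower genes with an entry 2 hold it, Ankrd37 and Ccar1, or 22.2%, a share below that of measured genes.

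Trib3, a pseudokinase induced by ATF4 that in turn restrains it, was the lowest of all measured genes. It stood at 389 in treated and 1728 in untreated cells, a log2 ratio of -2.15 (4.45-fold lower), and its dimmer probe was at -0.999. Its brighter probe lies on chromosome 2 at 152163355 to 152163414 of mm9. Chac1, which degrades glutathione, stood at 673.5 in treated and 1846 in untreated cells, a log2 ratio of -1.45 (2.74-fold lower). Asns, asparagine synthetase, stood at 14022 in treated and 27122 in untreated cells, a log2 ratio of -0.95. Atf5 was at -0.88, the transporters Slc7a5 and Slc38a2 at -0.47 and -0.45, and Ddit3, the factor CHOP, at -0.37. Atf4 RNA itself was at -0.09, although ATF4 is known to be set mainly by translation. Of 34 measured genes of the list, 8 were above 0, against 53.4% of all measured genes, and 26 were below 0. Of the 34, 2 passed 2-fold and 4 passed 1.5-fold as lower (11.8%), against 2.78% of all measured genes. The median was -0.17, and median centring turned it to 0.02. Members above 0 included Aldh18a1 at 0.45, Pycr1 at 0.34 and Pck2 at 0.30. Aminoacyl-tRNA synthetases, some of them ATF4 targets, had a median of -0.08 over 20 genes, which turned to 0.23 with median centring.

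Ankrd37, a small ankyrin protein induced by hypoxia, stood at 133 in treated and 426 in untreated cells, a log2 ratio of -1.68 (3.21-fold lower). Ndrg1, a hypoxia and stress response gene, stood at 857 in treated and 2043 in untreated cells, a log2 ratio of -1.25 (2.38-fold lower). Of 45 measured hypoxia targets 16 were above 0, against 53.4% of all measured genes, and 29 were below it. Lower by 1.5-fold or more were 7 (15.6%), these 2 among them, against 2.78% of all measured genes. Higher by that size were 2 (4.44%), against 2.2% of all measured genes. Pdk1, which keeps pyruvate out of mitochondria, was at -0.80 and -0.99 in its 2 probes, Eno1 at -0.67, P4ha2 at -0.73, P4ha1 at -0.64 and -0.76 in its 2 probes, and Narf at -0.60. The mitophagy receptors Bnip3l and Bnip3 were at -0.55 and -0.47. Adm and Pfkfb4 went the other way, at 0.64 and 0.67. Vegfa was at -0.02 and the glucose transporter Slc2a1 at -0.27. The lactate-forming Ldha was at 0.26 in its brighter probe, or -0.06 with the authors' log ratio, and at -0.32 in its dimmer probe. The median of -0.11 turned to 0.01 with median centring. Hif1a RNA stood at 725 in treated and 1303.5 in untreated cells, a log2 ratio of -0.85, and the hydroxylases Egln1 and Egln2 that mark its protein were at -0.04 and 0.32. Egln3 was not well above background in either channel.

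The other lower genes have no shared list. Among them, by log2 ratio, were Fam102b (-1.14), Efna5 (-1.14), Hoatz (-1.11), Phyhd1 (-1.09), Cacna1g (-1.05), Maf (-1.05), Ccar1 (-1.04) and Hs6st2 (-1.01). Of the 17 lower genes 7 had several measured probes, and in 2 of these, Trib3 and Fam102b, each probe was at least 1.5-fold lower. The 4 probes of Maf ranged from -1.05 to 0.04, with the brightest on this array at -0.05. The 3 probes of Ccar1 ranged from -1.04 to -0.06. With the median over the probes of a gene, 11 genes were at least 2-fold lower in place of 17. Another 3 of the 17 carry clone or probe names. The long non-coding RNA Malat1, outside the limit at -0.98, had 4 probes from -1.16 to -0.45.

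The measured members of both lists for ascorbate transport and use stayed under 2-fold, as nearly all measured genes did. Of all measured genes 0.432% passed that limit as higher and 0.118% as lower. Phyhd1, a dioxygenase of the iron-dependent class at -1.09, is outside these lists. Slc23a1, an ascorbate transporter, was not well above background in either channel, and the transporter Slc23a2 was at -0.04. Of 37 measured ascorbate-linked dioxygenases and partners, 0 were past 2-fold, and Hif1a was the 1 past 1.5-fold. The histone demethylases had 14 measured members with Kdm3a lowest at -0.55 and Kdm5c highest at 0.16. Tet3 was at -0.38 and Tet1 at 0.06. Fto was at 0.41 in its brightest probe, with its other probes at 0.30 and -0.33. Among collagen hydroxylases P4ha2, P4ha1 and Plod2 (-0.45) were lower and P3h1 at 0.46 the highest, and none of 25 collagen-modifying genes reached 2-fold. The antioxidant genes Hmox1 and Nqo1 were at -0.20 and 0.20, Cdkn1a at -0.05 and Mki67 at -0.15.

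Of all measured genes 0.432% passed 2-fold as higher and 0.118% as lower. Factors by which stroma supports lymphocytes stayed under 2-fold in all 21 measured genes. Kitl, the stem cell factor, was lowest, at 686 in treated and 1185 in untreated cells, a log2 ratio of -0.79. Il7 was near the floor, at 111 in treated and 103 in untreated cells. Cxcl12, which retains progenitors in marrow, was at 0.36 in its brighter and -0.40 in its dimmer probe. Flt3l was at 0.40, Csf1 at -0.08, Il6 at -0.53 and the Notch ligands Jag1 and Dll1 at -0.49 and -0.22. Whether the Dll1 probe reads the introduced copy is not given in the sources used here. Osteoblast genes had a median of -0.02 over 16 members, with Alpl at 0.22 and Bglap at 0.00. Of these members 0 passed 1.5-fold, against 2.2% of all measured genes as higher and 2.78% as lower. Among adipocyte genes Gpd1 was at 0.85, Adipoq at 0.29 and Pparg at -0.02. Cebpa was at -0.42 in its brighter and 0.12 in its dimmer probe. Markers of osteoblast and of adipocyte fate also stayed under 2-fold, as nearly all measured genes did.

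The stromal values were set beside those of the T lineage arrays, which used the same probes and the dyes the same way round. The interferon-stimulated list had a median of 0.83 in stromal cells, against 0.02 on the 24 h T cell array and -0.02 on the 72 h T cell array, over 47 genes on each array. The stromal log2 ratio was the higher in 46 of 47 genes beside T cells at 24 h, with Ifi27 the exception, while over 13750 genes measured on both arrays it was the higher in 46.2%. Oasl2 was at 2.30 in stromal cells, 0.06 in 24 h T cells and 0.05 in 72 h T cells, and Usp18 at 1.92, -0.21 and -0.09 in the same order. The 24 h T cell array had 0 of the 47 past 2-fold, and the 72 h array had 1. That member was Ifi27l2a, at 1.89 in stromal cells, 0.17 in 24 h T cells and 1.11 in 72 h T cells. Of all 62 higher stromal genes, 58 were measured on the 24 h T cell array, and 4 were at least 2-fold higher there. On the 72 h array 7 were, As3mt among them at 1.34. For scale, 5327 genes on the 24 h T cell array had probes of 35% to under 40% GC. Of these, 21 were at least 2-fold higher and 0 lower. On the 72 h array 10 of 5095 such genes were higher and 20 lower. Cholesterol synthesis genes had medians of 0.44 in stromal cells, -0.05 in 24 h T cells and 0.22 in 72 h T cells. Collagen chains had medians of 0.16, 0.55 and 0.26. Mgp was at 1.65, 1.11 and 1.02, Col1a2 at 1.12, 1.20 and 1.11, and Trib3 at -2.15, -0.47 and -1.22, so for these genes the same direction appeared on all 3 arrays. The mesenchymal markers, Col1a2 among them, had a median of 0.65 in 24 h T cells, with 13 of 13 above 0. In 72 h T cells their median was 0.44, with 11 of 14 above 0. The part of stromal RNA in the T cell values of matrix genes was not tested. The part of a probe's dye effect in any of the values of the 3 arrays was not tested either. Chac1 was at -1.45, 0.50 and -0.25, and Ankrd37 at -1.68, 0.17 and -0.90. With 1 array a group these differences were not tested.

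**Figure D4:**
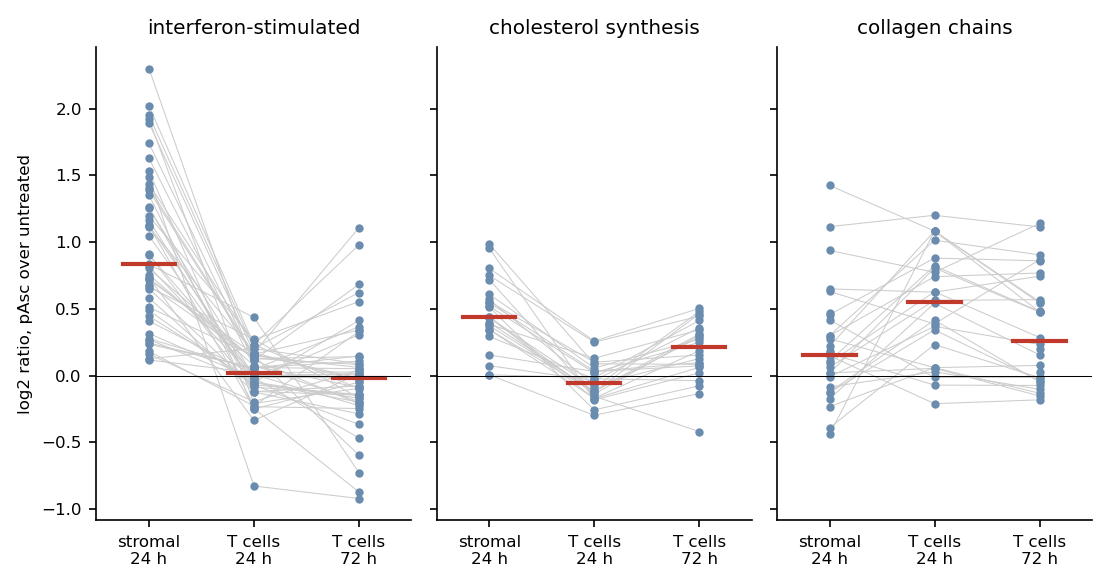
Log2 ratio of pAsc over untreated cells for each measured gene (points, joined by grey lines where measured on all 3 arrays) in stromal cells (24 h) and in T cells (24 h, then 72 h), with the median as a red bar. The interferon-stimulated list has medians of 0.83, 0.02 and -0.02, cholesterol synthesis 0.44, -0.05 and 0.22, and collagen chains 0.16, 0.55 and 0.26.

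The base composition of the probes moved with the log2 ratio on the stromal array. Across 14347 genes, which are not independent, the GC percentage of the probe correlated with the log2 ratio at 0.28 on the stromal array, against -0.05 on the T cell array at 24 h and -0.17 at 72 h. The median log2 ratio was -0.08 for 4274 genes whose probes held 35% to under 40% GC and 0.14 for 1595 genes at 55% or more. Of the 17 lower genes 14 had probes under 45% GC, and their median was 40%, against 43.3% for all measured genes. The 62 higher genes had a median of 45% and the 21 of them in the interferon-stimulated list 41.7%. After a straight line on probe GC was subtracted, a step chosen after seeing the data, 61 higher and 15 lower genes passed 2-fold. Of the original 62 higher genes 58 were among them, without Klhl30, Rdm1, Phf11d and Myl6. Of the original 17 lower genes 13 were, without Hs6st2, Ccar1, Maf and Cacna1g. The higher genes held 21 of the interferon-stimulated list, and Trib3, Chac1, Ankrd37 and Ndrg1 were still lower.

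**Figure D5:**
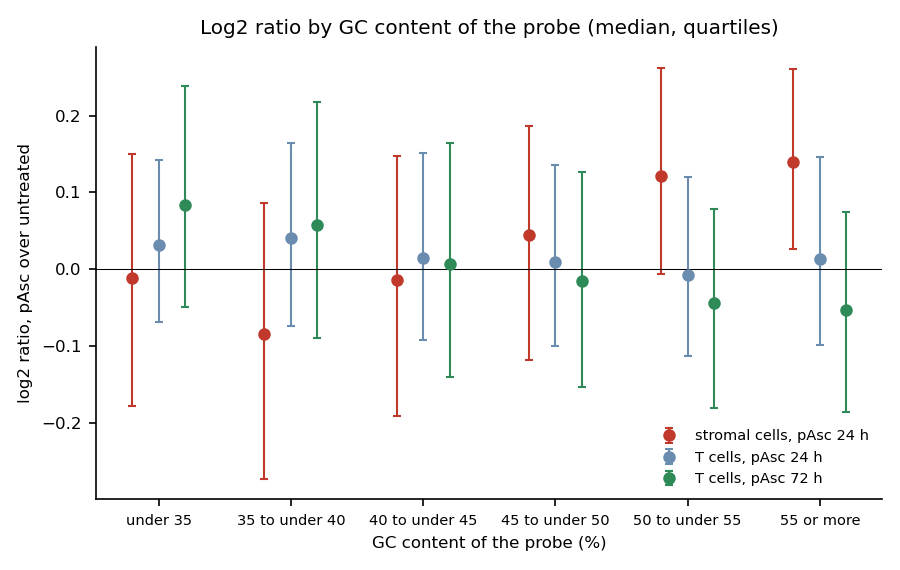
Median log2 ratio of pAsc over untreated cells (points, with lower and upper quartile as bars) by the GC percentage of the probe, for the stromal array and both T cell arrays. On the stromal array the median runs from -0.08 at 35% to under 40% GC to 0.14 at 55% or more, a slope that the T cell arrays do not share.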

How the data were processed

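The deposited files hold scanner intensity per spot, not normalized, with the mean signal and the median background around each spot. The authors used Agilent Feature Extraction, version 10.5.1.1 in the file headers. A deposited log10 ratio of Cy5 over Cy3, dye-normalized by that software per the file headers, was used as an alternative after conversion to log2. All arrays shared 1 slide and 1 scan.

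Backgrounds were corrected with normexp (offset 50) and arrays normalized by loess (span 0.3) in limma 3.58.1 under R 4.3.3, with control spots and the 117 stromal spots with outlier flags at weight 0. No spot was saturated (0 of 43379). A gene took its probe of highest mean brightness over the 3 arrays, and counted as measured where a share of at least 0.5 of its spots was well above background in both channels. The definition of the members was written with plain background subtraction in mind, which is an alternative here. Probes were named by accession (25094), symbol (6333) or synonym (1640) through a RefSeq table of GRCm38, and 8104 kept the file's name. Probe positions are on mm9, per the file headers.

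The gene lists (35, of 867 genes), members and rules were chosen with earlier results of these data known. Genes are named as the 25 highest and 17 lowest with gene symbols, list members past 2-fold, up to 6 members of largest ratio per list or role, a fixed set of genes of interest, and genes above background in 1 channel with a bound of at least 2-fold. A bound sets the brighter channel against whichever is higher of the dim signal and the lowest signal of any probe above background, after Aquantile scaling, and is open to dye bias. Others named (such as Oas1f, Rtp4 and Apol9a) were chosen after their values were seen. Alternatives numbered 8 planned and 2 added. The number of arrays limits the precision. The steps were tested on simulated data. A few genes that this rule names are not reported here.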

Additional observations from a re-analysis of the deposited data

Results flagged for a closer look

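Oas2 was above background only in treated stromal cells, with scaled signals of 232 in treated and 109 in untreated cells, and was at least 2.13-fold higher (2.128). It lies outside the main comparison, which needs both channels. Of 1114 genes above background only in the treated channel it was the 1 with a bound of 2-fold or more, and of 116 seen only in the untreated channel 0 had one. Before normalization the median signal over background was 41.03 in Cy5 (treated) and 19.33 in Cy3 (untreated). The part of this dye difference in the counts of 1114 and 116 was not tested.

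Several named genes moved opposite ways in stromal cells and in T lineage cells at 24 h, each by at least 1.5-fold, and the difference was not tested. Dhx58 had a log2 ratio of 1.49 in stromal and -0.83 in T lineage cells. Kitl had -0.79 in stromal and 0.63 in T lineage cells, Postn at -0.74 and 1.14, Sdc2 at -0.59 and 0.64, Sox9 at -0.91 and 0.96, and Cacna1g at -1.05 and 0.67, in the same order. In stromal cells the size for Sdc2, Sox9 and Cacna1g rests on 1 probe each, with the other probe at -0.12, -0.48 and -0.44. The collagen and matrix lists had medians of 0.55 and 0.61 in T cells at 24 h, and their part in the T cell values of Postn, Sdc2 and Sox9 was not tested.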

How the results depend on the processing

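The counts of genes past 2-fold depended on the processing, while that of interferon-stimulated genes past 2-fold ran from 20 to 23. With 62 higher and 17 lower genes in the values above, plain background subtraction gave 155 and 88, normexp with offset 0 gave 108 and 32, the authors' log ratio 136 and 110, median centring 244 and 50, and a 1.5-fold limit 316 and 399. The median over probes gave 57 and 11, and a running median over brightness 56 and 20. The 1.5-fold limit gave 33 interferon-stimulated genes in place of 21, 4 amino acid stress genes in place of 2 and 7 hypoxia targets in place of 2. Under the other alternatives the amino acid stress and hypoxia counts ran from 2 to 3. Of the 62 higher genes 48 stayed past 2-fold under all of plain subtraction, offset 0, the authors' log ratio, median centring, the running median and the GC line, and of the 17 lower genes 8 did. No gene past 2-fold changed sign (0) under any alternative run. Median centring moved 243 of 404 named genes and 18 of 35 list medians by more than the 0.18 SD between probes, and the cause was not tested. Without genes above a brightness of 16, 58 were higher. No paired analysis was possible because each comparison rests on 1 array. Dim genes are limited by signal over background, since the offset shrinks their ratios.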
